A study of Mus musculus with 2 samples.

Results

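This account covers 9 glutamate receptor genes, *Gria2*, *Gria3*, *Gria4*, *Grin1*, *Grin3a*, *Grm3*, *Grm5*, *Grm7* and *Grik2*, chosen by their symbols from the 32285 genes counted in single cells of mouse optic nerve glioma. All 9 were detected, among 26077 genes detected in the cells kept. The optic nerves came from *Nf1* flox/mut; GFAP-Cre mice on a C57BL/6 background at 12 weeks of age (the Nf1-OPG model of neurofibromatosis type 1 optic glioma), and every sample carries this genotype. In these mice Cre is driven from the GFAP promoter, which is active in astrocytes and in neuroglial progenitors, so that cells of other lineages keep a working *Nf1* allele. There are 2 droplet libraries of 1 condition, replicate 1 (library C-ON, whose label holds the word control without saying of what) and replicate 2 (library FMC_new), and per the labels the nerves of 10 mice were pooled for each of them. No treated or wild-type sample was analysed here, and no test between conditions can be made.

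Glutamate is the main excitatory transmitter of the central nervous system, and axons release it onto glia as well as onto neurons. Ionotropic receptors are channels built of several subunits: AMPA receptors (Gria subunits) carry fast currents, kainate receptors (Grik subunits) modulate them, and NMDA receptors need the obligatory Grin1 subunit and admit calcium. Metabotropic receptors signal through G proteins: Grm5 belongs to the group coupled to phospholipase C, while Grm3 and Grm7 belong to groups that lower cyclic AMP. Oligodendrocyte precursor cells carry AMPA receptors and receive synapses from axons. The tumor-like class described below was named from markers of these precursors. Tumor cells and normal precursors were not told apart within it.

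In the coding sequence of the AMPA receptor genes and of *Grik2*, a single codon of the pore loop, the Q/R site, sets whether calcium passes. It encodes glutamine in the genome, and in *Gria2* and *Grik2* transcripts the enzyme Adarb1 edits it to an arginine codon. The stretches are shown because this site is where the *Gria2* subunit differs in function from the other AMPA subunits, whose UMI shares are described further down. Each is 45 bases of the coding strand, written 5′ to 3′ from the GENCODE transcripts of GRCm38, with the Q/R codon in capitals.

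Gria1 (chr11:57243073-57243117, plus strand, exon 11): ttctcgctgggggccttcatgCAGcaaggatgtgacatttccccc
Gria2 (chr3:80706890-80706934, minus strand, exon 11): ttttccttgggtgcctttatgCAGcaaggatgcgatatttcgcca
Gria3 (chrX:41610244-41610288, plus strand, exon 12): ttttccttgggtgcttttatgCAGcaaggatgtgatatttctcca
Gria4 (chr9:4464116-4464160, minus strand, exon 12): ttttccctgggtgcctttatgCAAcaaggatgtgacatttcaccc
Grik2 (minus strand of chromosome 10, across the junction of exons 13 and 14): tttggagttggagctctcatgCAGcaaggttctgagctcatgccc

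The codon is CAG in *Gria1*, *Gria2*, *Gria3* and *Grik2* and CAA in *Gria4*. Against the *Gria2* stretch, 3 bases differ in *Gria3*, 6 in *Gria4*, 9 in *Gria1* and 18 in *Grik2*. UMI counts do not read this codon, so editing was not measured.

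The 9 genes are protein coding and lie on 9 chromosomes of GRCm38: *Gria2* at chr3:80681450-80802835 on the minus strand, *Gria3* at chrX:41400854-41678601 on the plus strand, *Gria4* at chr9:4417896-4796234 on the minus strand, *Grin1* at chr2:25291181-25319187 on the minus strand, *Grin3a* at chr4:49661611-49845744 on the minus strand, *Grm3* at chr5:9485541-9725170 on the minus strand, *Grm5* at chr7:87584168-88134907 on the plus strand, *Grm7* at chr6:110645581-111567230 on the plus strand and *Grik2* at chr10:49094833-49788766 on the minus strand. Their spans run from 28.007 kb for *Grin1* to 921.65 kb for *Grm7*. Antisense genes with overlapping exons are counted for *Grin1* (*Grin1os*) and *Grm7* (*Gm20387*). Whether intronic reads entered the counts is not given in the sources used here.

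C-ON held 85101211 UMIs (unique molecular identifiers, 1 for each captured transcript) and 8834 kept cells, FMC_new 129113325 UMIs and 16818 kept cells. Kept cells had a median of 6810.5 and 4676 UMIs. Clusters were named "X-like" from marker lists, with the 9 genes and the other listed glutamate genes left out of the genes that shaped the clusters. The tumor-like class, named from oligodendrocyte precursor markers such as *Pdgfra* and *Cspg4*, held 203 cells in C-ON and 1383 in FMC_new, with all 12 markers in at least 56.4% of its cells in either library. Oligodendrocyte-like cells numbered 5735 and 2404 and carried all 12 of their markers. Astrocyte-like cells (21 and 249) and pituitary endocrine-like cells (19 and 1768) were too few in C-ON for a level, and in both libraries together 11 of 12 and 11 of 17 of their markers were found in at least 20% of cells. The label optic nerve does not name pituitary tissue, yet pituitary endocrine-like cells made up 10.5% of kept cells of FMC_new and 0.215% of C-ON. In the 19 cells of C-ON, 7 of the 17 markers were found in at least 20% of cells. Another 7 were at 0, with *Gh*, *Prl* and *Pou1f1* among them, so the name of these 19 cells is uncertain. Free RNA was present: *Gh*, the growth hormone gene, had a UMI in 99.9% of T cell-like cells of FMC_new and in none of the 968 of C-ON. T cell-like cells (968 and 3464, median 3212.5 and 2978 UMIs), which should lack most of these receptors, therefore serve as the background in what follows. Between the libraries, 188 barcodes were kept in both.

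A level is a CPM value: UMIs of 1 gene divided by all UMIs of a class in a library and multiplied by 1000000. Levels carry exact Poisson 95% intervals, and shares are the percentage of cells with at least 1 UMI. The intervals cover counting error only. Ratios of levels carry exact 95% intervals of the same kind, and a ratio was called when it reached 4 times in the same direction in every library with at least 50 cells of both classes.

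Of the AMPA subunit genes, which serve fast transmission, *Gria2*, *Gria3* and *Gria4* were high in tumor-like cells, while *Gria1* stood at 23.9 and 26.3 CPM. *Gria2*, whose edited subunit makes AMPA receptors impermeable to calcium, stood at 439 CPM (402 to 479) in C-ON and 285 CPM (273 to 297) in FMC_new, with a UMI in 76.4% and 61.3% of cells. Oligodendrocyte-like cells had 5.37 and 7.01 CPM of *Gria2*. In FMC_new, *Gria2* stood at 172 CPM in astrocyte-like cells and at 58.0 CPM in pituitary endocrine-like cells, against 2.40 and 2.64 CPM in the T cell-like cells of C-ON and FMC_new. The order in FMC_new was thus tumor-like, astrocyte-like, pituitary endocrine-like, oligodendrocyte-like, with no overlap of intervals between neighbours. The first of these steps turned with the clustering, as given beside the ratios.

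*Gria3*, another AMPA subunit gene, had 188 CPM (164 to 215) and 199.5 CPM (189 to 209.9) in tumor-like cells, with a UMI in 48.3% and 51.2% of cells. Its level in oligodendrocyte-like cells, 0.973 and 1.71 CPM, was no higher than the 1.07 and 1.96 CPM of T cell-like cells. Astrocyte-like cells of FMC_new had 89.7 CPM of *Gria3* and pituitary endocrine-like cells 4.77 CPM. Stromal-like cells, whose leading genes include *Dcn* and *Col6a1* of connective tissue, also held it, at 25.6 CPM in C-ON and 28.3 CPM in FMC_new.

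*Gria4*, the subunit gene with the fastest-gating channels of its family, was found at 597 CPM (553 to 643) and 504 CPM (488 to 520.3) in tumor-like cells, in 82.3% and 70.3% of cells. Oligodendrocyte-like cells held it at 82.1 and 74.0 CPM, over the 13.4 and 4.86 CPM of T cell-like cells. Their level of *Gria2* was lower, though its interval too lay above that of T cell-like cells in both libraries (4.73 to 6.07 against 1.10 to 4.56 CPM, and 5.84 to 8.34 against 1.80 to 3.75 CPM). Pituitary endocrine-like cells of FMC_new had 42.9 CPM and astrocyte-like cells 22.4 CPM, the latter within the interval of stromal-like cells (25.8 CPM).

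**Figure D1:**
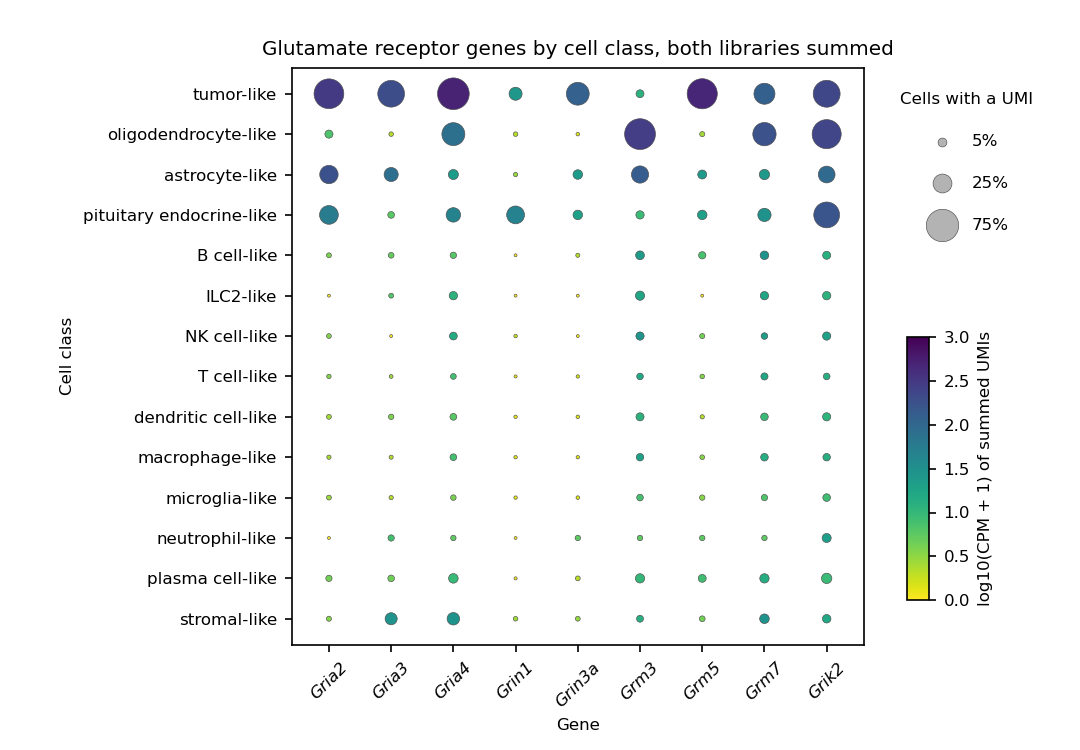
The 9 glutamate receptor genes (columns) in the 14 named cell classes (rows), both libraries summed. Dot area is the share of cells with a UMI and colour is log10(CPM + 1); the AMPA genes, *Grin3a* and *Grm5* are darkest in tumor-like cells, while *Grm3* is darkest in oligodendrocyte-like cells.

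Of the NMDA receptor genes, *Grin1*, the subunit that every NMDA receptor needs, had 30.7 CPM (21.5 to 42.5) and 23.6 CPM (20.3 to 27.4) in tumor-like cells, in 15.8% and 11.0% of cells. Pituitary endocrine-like cells had more, 47.7 CPM (44.0 to 51.7) in FMC_new and a UMI in 22.5% of cells. This direction was lost with classes taken from markers of single cells, where the log2 ratio of tumor-like over pituitary endocrine-like cells was 0.016. In oligodendrocyte-like cells *Grin1* stood at 1.18 and 0.939 CPM, and astrocyte-like cells of FMC_new gave only 2 UMIs, a level of 2.14 CPM (0.259 to 7.71). No UMI of *Grin1* was found in the 968 T cell-like cells of C-ON, which allows a level of up to 0.801 CPM by the limit of 3 counts that is used here for a count of 0.

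*Grin3a* encodes an NMDA subunit that lowers calcium entry and magnesium block. It was held by 51.7% and 34.7% of tumor-like cells, at 178 CPM (155 to 204) and 110.3 CPM (103 to 118). Oligodendrocyte-like cells, with 0.359 and 0.442 CPM, did not differ from T cell-like cells beyond their intervals (0.267 and 0.682 CPM). In FMC_new the levels in astrocyte-like and pituitary endocrine-like cells, 19.2 and 18.0 CPM, lay within each other's intervals. Of all UMIs of *Grin3a* in kept cells, 74.7% came from tumor-like cells.

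Among the metabotropic genes, *Grm5* and *Grm3* were distributed in opposite ways over the glia. *Grm5* had 439.9 CPM (403 to 479.6) and 486 CPM (470.2 to 502) in tumor-like cells, in 70.9% and 63.9% of cells, and 84.2% of all its UMIs came from this class. Oligodendrocyte-like cells had 1.65 and 1.44 CPM of *Grm5*, at or under the 2.94 and 2.47 CPM of T cell-like cells. Astrocyte-like and pituitary endocrine-like cells of FMC_new, at 22.4 and 18.0 CPM, lay within each other's intervals.

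*Grm3*, the receptor that binds the peptide NAAG as well as glutamate, was highest in oligodendrocyte-like cells, at 294 CPM (289 to 299) and 248 CPM (241 to 255) and in 71.0% and 60.6% of cells. Astrocyte-like cells of FMC_new followed, at 116 CPM (95.6 to 140.4). The 28.1 CPM (19.4 to 39.5) of *Grm3* in tumor-like cells of C-ON lay below the 53.4 CPM of T cell-like cells of that library, and so within the background used here. In FMC_new, tumor-like cells had 8.60 CPM and pituitary endocrine-like cells 7.27 CPM, against 1.96 CPM in T cell-like cells. The 12 oligodendrocyte markers summed to 9575 CPM in tumor-like and 9619 CPM in T cell-like cells of C-ON, and to 4424 and 1311 CPM in FMC_new, with none of the markers at 0 in either class. The part of such RNA in the levels of *Grm3* was not tested.

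*Grm7*, a presynaptic receptor of low affinity for glutamate, and *Grik2*, a kainate receptor subunit, were held by both tumor-like and oligodendrocyte-like cells. *Grm7* stood at 176 CPM (153 to 202) and 113 CPM (106 to 121) in tumor-like cells and at 184 CPM (179.9 to 188) and 153 CPM (147 to 159) in oligodendrocyte-like cells. In C-ON these intervals overlap, and in FMC_new oligodendrocyte-like cells were higher, an order that turned with other choices of cells, as given beside the ratios. *Grik2* was higher in tumor-like than in oligodendrocyte-like cells in C-ON, 344 against 214 CPM, and lower in FMC_new, 214 against 293 CPM, so that the libraries disagree on its order. Both classes were made up differently in the 2 libraries. Oligodendrocyte-like cluster 3, at 437 and 436 CPM of *Grik2*, held 826 of 5735 cells in C-ON and 930 of 2404 in FMC_new. Cluster 0, at 98.4 and 104 CPM, held 1656 and 361, and cluster 11, at 475 and 428 CPM, held 702 and 210. Tumor-like cluster 8, at 359 and 239 CPM, held 196 of 203 cells in C-ON and 922 of 1383 in FMC_new. The rest of the tumor-like class was cluster 19, at 103 CPM in FMC_new. The part of this make-up in the order of *Grik2* was not tested. Pituitary endocrine-like cells of FMC_new held *Grik2* at 167 CPM and in 47.4% of cells, more than the 86.5 CPM of astrocyte-like cells. For *Grm7* the corresponding levels were 28.6 and 21.4 CPM, and their intervals overlap. T cell-like cells of C-ON had 52.1 CPM of *Grm7* and 37.9 CPM of *Grik2*, and those of FMC_new 3.75 and 3.50 CPM.

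**Figure D2:**
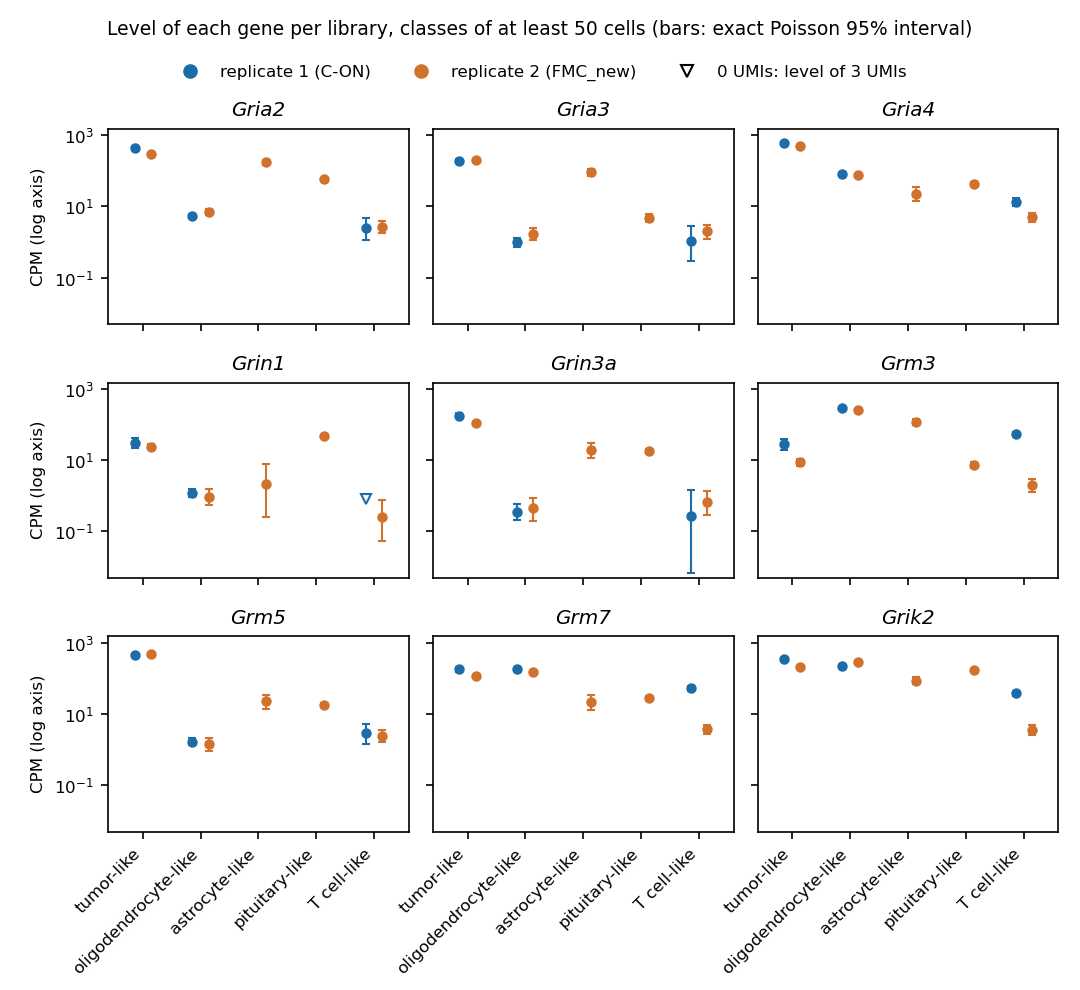
Level of each gene in CPM (log axis) in tumor-like, oligodendrocyte-like, astrocyte-like, pituitary endocrine-like and T cell-like cells, 1 point per library with at least 50 cells of the class. Bars are exact Poisson 95% intervals and the open triangle marks a class without a UMI, drawn at the level of 3 UMIs. C-ON and FMC_new lie within 2 times of each other in tumor-like and oligodendrocyte-like cells, except for *Grm3* in tumor-like cells. T cell-like cells of C-ON are higher than those of FMC_new in *Gria4*, *Grm3*, *Grm7* and *Grik2*.

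Set against oligodendrocyte-like cells in both libraries, 6 of the 9 genes were at least 4 times higher in tumor-like cells, where 17.9% of the 15113 genes tested were. The 9 genes were chosen with earlier results of these data known, so this count and those that follow are descriptive. *Grm5* was 267 times (209.9 to 343) higher in C-ON and 339 times (231 to 519) in FMC_new. *Grin3a* was 496 times (302 to 867) and 249.7 times (126 to 580.4) higher, resting on 17 and 8 UMIs in oligodendrocyte-like cells. For *Gria3* the ratios were 194 (140.5 to 272) and 117 (81.8 to 172), for *Gria2* 81.8 (70.2 to 95.4) and 40.6 (34.0 to 49.0), for *Grin1* 25.9 (16.6 to 40.1) and 25.2 (15.3 to 44.2), and for *Gria4* 7.27 (6.70 to 7.89) and 6.81 (6.39 to 7.25). Because *Gria3*, *Grin3a* and *Grm5* in oligodendrocyte-like cells were at the background of T cell-like cells, their ratios measure the tumor-like level over that background.

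*Grm3* was the gene at least 4 times lower in tumor-like cells, as were 2.67% of the genes tested: oligodendrocyte-like cells had 10.5 times (7.44 to 15.2) more in C-ON and 28.8 times (22.5 to 37.5) more in FMC_new. The tumor-like level of *Grm3* in C-ON is within the background, so that its ratio there is one over background as well. *Grm7* and *Grik2* passed in neither direction. The ratio of tumor-like over oligodendrocyte-like cells was 0.960 (0.833 to 1.10) and 0.739 (0.684 to 0.799) for *Grm7*, and 1.602 (1.45 to 1.77) and 0.728 (0.688 to 0.771) for *Grik2*. The mean log2 ratio of *Grm7* over the libraries, -0.25, turned to 1.19 with classes taken from markers of single cells and to 0.30 without oligodendrocyte-like cluster 11. The median log2 ratio over the 9 genes was 4.70 in C-ON and 4.66 in FMC_new, beside 0.53 and 0.45 over all genes tested.

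Against astrocyte-like cells, for which FMC_new alone has enough cells, 5 genes were at least 4 times higher in tumor-like cells, where 5.02% of 15677 genes were. These were *Gria4* at 22.5 times (14.7 to 36.4), *Grm5* at 21.7 times (14.2 to 35.1), *Grin1* at 11.1 times (3.02 to 92.2, on 2 UMIs in astrocyte-like cells), *Grin3a* at 5.74 times (3.61 to 9.73) and *Grm7* at 5.30 times (3.41 to 8.72). *Grm3* was lower, with 13.5 times (9.85 to 18.7) more in astrocyte-like cells, and 7.94% of genes were called in this direction. Other settings ended 4 of these calls: the log2 ratio, which has to reach 2, fell to 0.97 for *Grin1* thinned to 1000 UMIs, to 1.29 for *Grin3a* at a resolution of 1.2, to 1.497 for *Grm7* at a resolution of 0.4 and to -0.71 for *Grm3* with classes taken from markers of single cells. *Gria4* and *Grm5* stayed past 2 in every setting tried. The remaining ratios were smaller, 1.66 (1.41 to 1.96) for *Gria2*, 2.22 (1.78 to 2.81) for *Gria3* and 2.47 (1.98 to 3.13) for *Grik2*. With classes taken from markers of single cells 7 genes were called higher, as the log2 ratios of these 3 rose to 2.72, 2.17 and 4.21 while *Grin1* fell to 1.87, and *Gria3* also passed 2 in the other clusterings, reaching 3.90 at a resolution of 0.4. The log2 ratio of *Gria2*, 0.73, turned to -0.33 and -0.57 at cluster resolutions of 0.4 and 1.2 and to -0.31 with each library clustered alone, so its order between these classes is unsettled. The 12 astrocyte markers summed to 1208 CPM in tumor-like cells of FMC_new, against 78.8 CPM in T cell-like cells, and the 12 tumor-like markers to 1154 CPM in astrocyte-like cells, against 73.8 CPM. The 17 pituitary markers summed to 18945 CPM in astrocyte-like cells, with 2 of them at 0, and the part of such RNA in these ratios was not tested.

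Against pituitary endocrine-like cells of FMC_new, *Gria2*, *Gria3*, *Gria4*, *Grin3a* and *Grm5* were at least 4 times higher in tumor-like cells, 5 of 9, where 11.0% of 17646 genes were. The ratios were 41.8 (32.4 to 54.9) for *Gria3*, 27.0 (23.6 to 31.0) for *Grm5*, 11.7 (10.7 to 12.9) for *Gria4*, 6.13 (5.29 to 7.13) for *Grin3a* and 4.91 (4.51 to 5.35) for *Gria2*. *Grm7*, at 3.95 times (3.49 to 4.48), lay just under the threshold. No gene of the list was called lower, where 9.43% of all genes were; *Grin1* came closest, at 2.02 times (1.70 to 2.40) more in pituitary endocrine-like cells. *Grik2* and *Grm3* had ratios of 1.28 (1.202 to 1.37) and 1.18 (0.846 to 1.64). The 17 pituitary markers, *Gh* and *Prl* included, summed to 9420 CPM in tumor-like and 7289 CPM in T cell-like cells of FMC_new, with none at 0, and the part of pituitary RNA in these ratios was not tested.

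The study looked for genes of tumor cells with 3 limits, a UMI in over 45% of tumor cells, a UMI in under 2% of the other cell type, and a log2 fold change over 4.5 by the formula of Seurat. It applied them to its mouse data merged with published samples, and in each comparison with a non-neoplastic cell type. Of its markers, *Neu4* was in 66.2% of the tumor-like cells here and *Gpr17* in 41.9%, under the first limit. Passes and misses here are therefore not those of the study. With both libraries together, *Gria3* and *Grm5* met the 3 limits against oligodendrocyte-like cells, 2 of 9 genes, where 0.238% of all detected genes did. *Grm5* was in 64.8% of tumor-like and 1.25% of oligodendrocyte-like cells with a log2 fold change of 7.99, and *Gria3* in 50.8% and 0.848% with 7.28. *Grin3a* had a log2 fold change of 8.10 and missed the first limit, with 36.9% of tumor-like cells but 48.9% of cluster 8 of this class, and *Gria2* missed the second, with 4.08% of oligodendrocyte-like cells. The count of 2 became 3 in C-ON alone and without the shallow tumor-like cluster, 1 with classes taken from markers of single cells and 0 at 1000 UMIs per cell. None of the 9 met the limits against astrocyte-like cells (0.0537% of genes did) or pituitary endocrine-like cells (0.0575%). The share of *Grm5* was 5.19% in the former and 5.88% in the latter.

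The balance among AMPA subunit genes differed between the classes. It is given as each gene's share of the UMIs of *Gria1* to *Gria4*, with Clopper-Pearson 95% intervals, and is a share of captured 5′ ends without a correction for gene length. In tumor-like cells *Gria4* gave 47.8% (45.2 to 50.4) of 1464 UMIs in C-ON and 49.7% (48.5 to 50.8) of 7553 in FMC_new. *Gria2* gave 35.2% (32.7 to 37.7) and 28.1% (27.1 to 29.1), *Gria3* 15.1% and 19.7%, and *Gria1* 1.91% and 2.60%. The other AMPA subunit genes together thus carried more of the UMIs than *Gria2* in both libraries. The same held in the other classes described below, where the *Gria2* share was at most 46.8%, so it is not particular to tumor-like cells.

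Oligodendrocyte-like cells drew 92.3% (91.5 to 93.1) and 88.5% (86.7 to 90.0) of their AMPA UMIs from *Gria4* and 6.04% and 8.38% from *Gria2*. In astrocyte-like cells of FMC_new *Gria1*, which is not among the 9 genes, led with 55.5% (51.4 to 59.5) of 598 UMIs, and *Gria2* followed with 26.9% (23.4 to 30.7). Pituitary endocrine-like cells of FMC_new had the largest *Gria2* share of the 4 classes, 46.8% (44.3 to 49.3) of 1586 UMIs, next to 34.6% for *Gria4*. The clusters of this class differed, with 360 UMIs of *Gria2* and 11 of *Gria4* in cluster 16 and 44 and 33 in cluster 17. In cluster 22 these counts were 139 and 283, and in cluster 28 they were 199 and 222. The *Gria2* shares of tumor-like and astrocyte-like cells overlapped in FMC_new. *Adarb1*, the editing enzyme, stood at 20.5 and 11.2 CPM in tumor-like cells, 1.46 and 1.55 CPM in oligodendrocyte-like cells, 9.61 CPM in astrocyte-like and 39.4 CPM in pituitary endocrine-like cells, with 4.01 and 5.55 CPM in T cell-like cells.

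**Figure D3:**
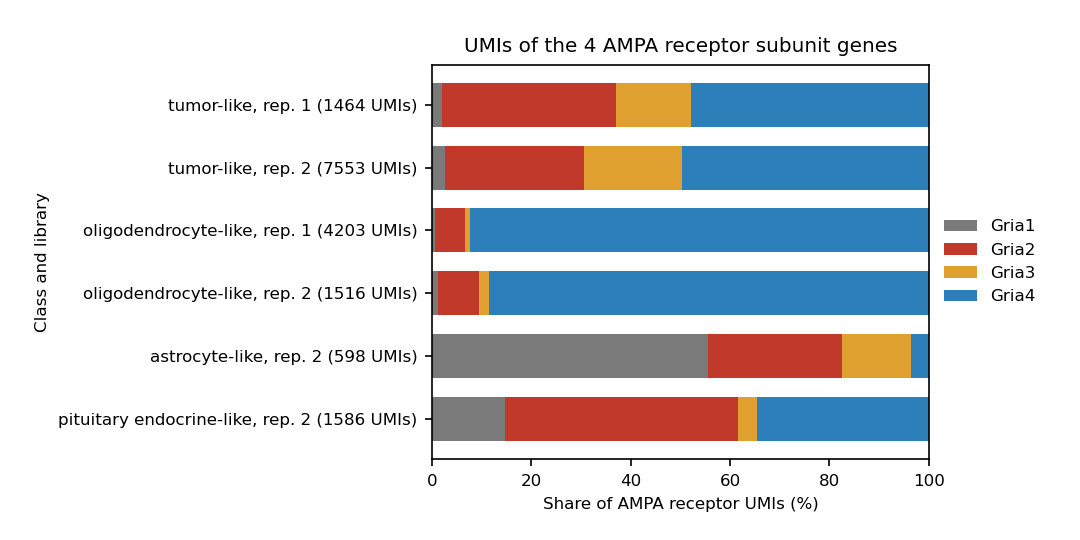
Share of the UMIs of *Gria1*, *Gria2*, *Gria3* and *Gria4* (%, horizontal axis) that each gene gives, 1 bar per class and library with at least 50 cells, with the number of UMIs beside it. *Gria4* gives 92.3% and 88.5% in oligodendrocyte-like cells and 47.8% and 49.7% in tumor-like cells, and *Gria1* leads in astrocyte-like cells.

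Tumor-like cells fell into cluster 8 (196 cells of C-ON and 922 of FMC_new) and cluster 19 (7 and 461). In FMC_new, 8 of the 9 genes were at least 2 times lower in cluster 19, where 18.6% of 14923 genes were, by 2.31 times (1.94 to 2.76) for *Grik2* to 4.34 times (3.17 to 6.09) for *Grin3a*, while *Grm3* was at 15.2 CPM there and at 7.09 CPM in cluster 8. Cluster 19 was shallower, with a median of 1995 UMIs against 6247, and the precursor markers moved alongside: *Pdgfra* was 3.29 times (2.96 to 3.67) and *Cspg4* 2.56 times (2.17 to 3.05) lower there. Genes of at least 200 kb, the 9 genes left out, gave 11.1% of UMIs in cluster 8 of FMC_new and 6.25% in cluster 19. *Malat1*, a nuclear RNA, gave 1.17% and 0.723%. The part of depth, of long genes and of cell quality in these differences was not tested.

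*Gpr17* marks precursors that are becoming committed to the oligodendrocyte fate, and tumor-like cells were compared by whether they had a *Gpr17* UMI (102 against 101 cells in C-ON, 562 against 821 in FMC_new). *Grm5* was lower with *Gpr17* in both libraries, at 0.726 (0.608 to 0.867) and 0.871 (0.815 to 0.930) times the level without. Within cluster 8 alone, a choice made after the values were seen, the ratios of *Grm5* were 0.698 and 0.708. It was the only one of the 9 with an interval under 1 in both libraries, where 1.63% of the 10810 genes tested were, and none had one over 1 in both, where 2.34% were. The ratios of *Grm3* were also under 1, at 0.655 (0.304 to 1.38) and 0.485 (0.271 to 0.841), with an interval that includes 1 in C-ON. Markers of the class moved with this split: the ratios with over without *Gpr17* were 1.602 and 2.01 for *Neu4*, 1.54 and 1.28 for *Pdgfra*, 1.51 and 1.25 for *Cspg4*, and 1.24 and 1.86 for *Bcas1*, a gene of newly forming oligodendrocytes. Their part in the ratio of *Grm5* was not tested. *Grik2* went opposite ways, 0.610 (0.497 to 0.748) in C-ON and 1.38 (1.25 to 1.52) in FMC_new, as did *Grin3a*, 0.727 (0.548 to 0.963) and 1.42 (1.24 to 1.64). *Gria2* was 1.44 times (1.32 to 1.57) higher with *Gpr17* in FMC_new and 0.872 times (0.731 to 1.04) the level in C-ON. Cells with a *Gpr17* UMI were deeper, with medians of 5608 against 4994 and 6099.5 against 4023 UMIs. At 1000 UMIs per cell, *Grm5* was found in 6 of 39 cells with *Gpr17* (interval of the share 5.86% to 30.5%) and 48 of 160 without (23.0% to 37.7%) in C-ON. In FMC_new it was found in 58 of 203 (22.5% to 35.3%) and 331 of 1103 cells (27.3% to 32.8%), and in both libraries the intervals overlap.

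**Figure D4:**
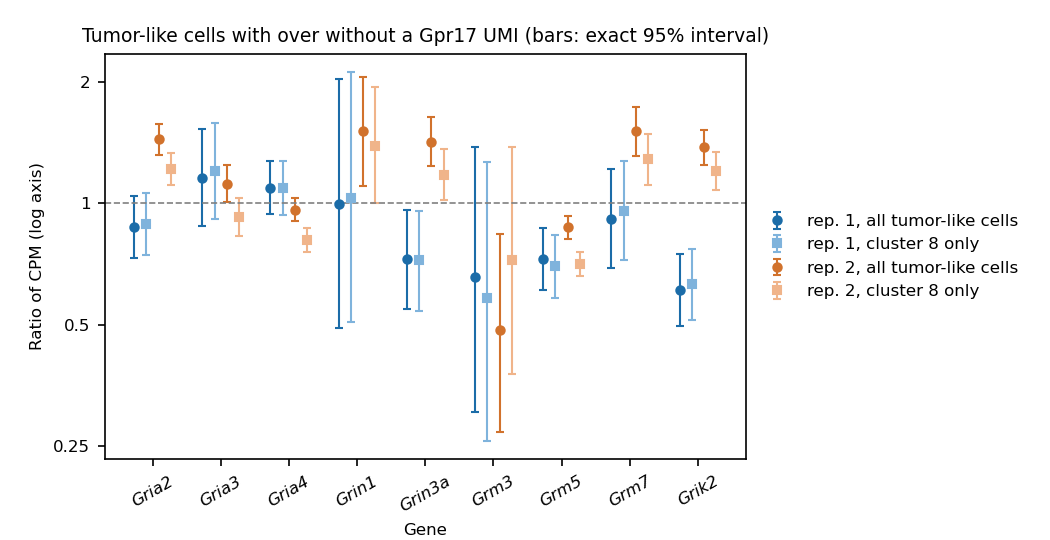
Ratio of CPM (log axis) in tumor-like cells with over those without a *Gpr17* UMI for each of the 9 genes, per library, over all tumor-like cells (circles) and within cluster 8 (squares), with exact 95% intervals; the dashed line is a ratio of 1. *Grm5* and *Grm3* lie under 1 in all 4 comparisons, *Grm3* with intervals that include 1 except in FMC_new over all tumor-like cells. *Grin3a* and *Grik2* lie on opposite sides in the 2 libraries.

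Single tumor-like cells often held several of the genes. With every cell thinned to 1000 UMIs, a tumor-like cell had a mean of 1.75 of the 9 genes in C-ON (199 cells) and 1.46 in FMC_new (1306 cells), and 25.1% and 19.5% of cells had at least 3. Oligodendrocyte-like cells had means of 0.620 and 0.592, with at least 3 genes in 3.02% and 1.95% of cells. The mean was 0.395 in astrocyte-like and 0.309 in pituitary endocrine-like cells of FMC_new, and T cell-like cells had means of 0.0996 in C-ON and 0.0232 in FMC_new. At full depth the means in tumor-like cells were 4.58 and 3.75, at a median of 5317 and 5237 UMIs, against 2.18 and 1.96 in the deeper oligodendrocyte-like cells (median 7754 and 7301.5). The pair found together most often at 1000 UMIs was *Gria4* and *Grm5* in FMC_new, in 181 of 1306 tumor-like cells, and *Gria2* and *Gria4* in C-ON, in 38 of 199. The product of the shares of the single genes alone would give 140 and 25.7 such cells. In FMC_new the class joins clusters 8 and 19, and before thinning *Gria4* and *Grm5* were 3.28 and 3.41 times lower in cluster 19. The part of this mixture in the counts of pairs was not tested.

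Within the oligodendrocyte-like class, the 4 genes of the list with the highest levels there, *Grm3*, *Grm7*, *Grik2* and *Gria4*, varied between its 6 clusters. Cluster 11 (702 and 210 cells) was highest in *Grm3*, at 808 CPM (786 to 830.5) and 669 CPM (632 to 706), in *Grm7*, at 588 CPM (569.6 to 607) and 527 CPM (495 to 560.4), and in *Gria4*, at 169 and 147 CPM. With cluster 12 set aside, cluster 0 was lowest in *Grm3*, at 161 and 140.5 CPM, and in *Grm7*, at 31.7 and 23.5 CPM. *Grm7* in cluster 0 of C-ON (29.1 to 34.4) lay below the 52.1 CPM of T cell-like cells. Cluster 0 was deeper there, with a median of 10117.5 against 3212.5 UMIs, and had a *Grm7* UMI in 18.1% of cells. CPM levels of cells of unlike depth do not settle whether this is free RNA, and that was not tested. In FMC_new, *Grm7* in cluster 0 lay above the 3.75 CPM of T cell-like cells. *Grik2* was high in a second cluster, number 3, which is led by interferon-response genes such as *Iigp1* and *Igtp* and by *C4b* and *Serpina3n*. Its level there, with intervals of 422 to 451.7 CPM in C-ON and 421 to 450.5 CPM in FMC_new, was close to the 475 and 428 CPM of cluster 11 and far from that of cluster 0. *Grm7* in cluster 3 was 88.8 and 102 CPM, so *Grik2* and *Grm7* did not move together over the clusters.

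Cluster 11 also stood apart in other genes of long span. Genes of at least 200 kb, the 9 genes left out, gave 16.0% and 14.6% of its UMIs, against 8.14% and 7.52% over the class, and *Malat1*, a nuclear RNA, gave 2.01% and 1.45% against 1.15% and 0.916%. Cluster 12 (444 and 337 cells) carried all 12 oligodendrocyte markers at the level of the naming rule, but its 10 leading genes hold none of them and begin with *Prl* and *Gh*, and its median UMI counts were 2451 and 2203. Its levels of *Grm3*, 120.2 and 20.9 CPM, and of *Grm7*, 58.8 and 9.56 CPM, are therefore not read as variation within the class. Tumor-like cells had 14.1% and 10.2% of UMIs from long genes. The part of nuclear RNA or of intronic reads in these levels was not tested.

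**Figure D5:**
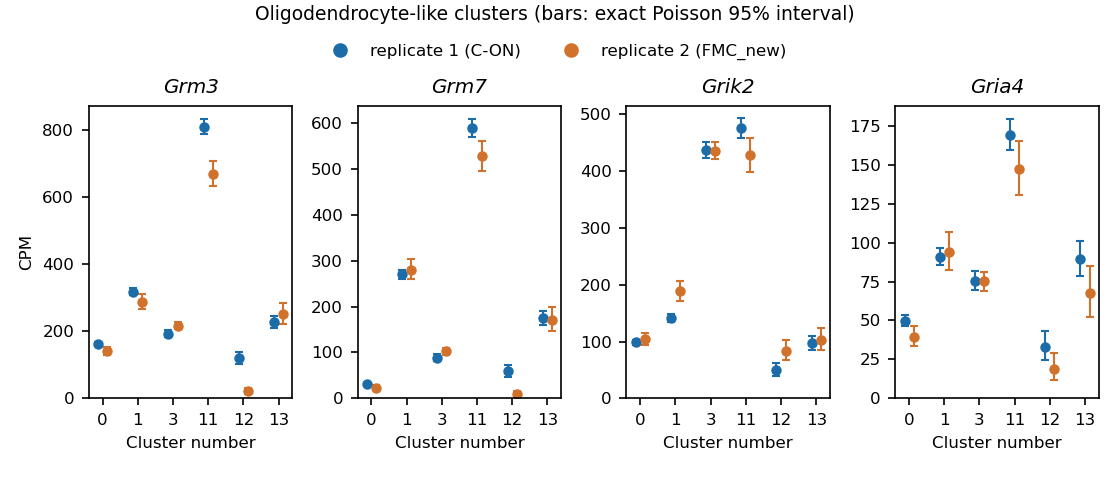
Level in CPM of *Grm3*, *Grm7*, *Grik2* and *Gria4* in the 6 oligodendrocyte-like clusters (horizontal axis, by number), 1 point per library with exact Poisson 95% intervals. Cluster 11 is highest in *Grm3*, *Grm7* and *Gria4* in both libraries, and cluster 3 reaches its level in *Grik2* in FMC_new.

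The pituitary endocrine-like cells of FMC_new fell into 4 clusters with different receptors. Cluster 28 (226 cells, with *Drd2* and *Pcsk2*, genes of the intermediate lobe, among its leading genes) held *Grin3a* at 105 CPM (90.6 to 121). *Grin3a* stood at 0.545 CPM in cluster 16 (600 cells, with *Tbx19* and *Crhr1*, genes of corticotrophs, among its leading genes). It stood at 6.28 CPM in cluster 22 (362 cells). The leading genes of cluster 22 include *Ghrhr*, *Pou1f1* and *Gh* but also *Prl*, so it is not read as somatotrophs alone. *Grin1* in cluster 28 was also at 105 CPM, and it stood at 44.5 CPM in cluster 16 and 37.2 CPM in cluster 22. *Gria4* was at 125 CPM in cluster 28, 71.1 CPM in cluster 22 and 1.998 CPM (0.997 to 3.58) in cluster 16, which is under the 4.86 CPM of T cell-like cells. *Grm5* was highest in cluster 22, at 37.9 CPM (32.1 to 44.5). In *Grik2*, cluster 22 had 241 CPM and cluster 28 215 CPM, and their intervals overlap. The fourth cluster, number 17 (580 cells), was shallow, with a median of 1902.5 UMIs, and had the highest *Grm3* of the 4, 23.7 CPM (16.6 to 32.8). It held *Gria4* at 21.7, *Grin1* at 19.7 and *Grin3a* at 9.87 CPM.

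Partner genes and the rest of the family were read from lists of 17 other glutamate receptor genes, 30 auxiliary subunit, scaffold and editing genes and 20 transporter and enzyme genes. Against oligodendrocyte-like cells, 6 of the 12 other receptor genes with enough UMIs were at least 4 times higher in tumor-like cells and none was lower, where 17.9% and 2.67% of all genes were. Against astrocyte-like cells 1 of 14 was higher and 5 were lower (5.02% and 7.94% of all genes), and against pituitary endocrine-like cells 4 of 13 were higher and 1 was lower (11.0% and 9.43%). Compared with oligodendrocyte-like cells of C-ON and FMC_new, *Grid1*, a delta receptor of synapse adhesion, was 123 times (97.2 to 157) and 76.1 times (54.4 to 109.8) higher in tumor-like cells, and *Grik4*, a kainate subunit of high affinity, 12.5 times (10.5 to 14.9) and 5.79 times (4.98 to 6.75). *Grik3* could not be read, because T cell-like cells had 193 and 144 CPM of it, against 280 and 249 CPM in tumor-like cells. The Grin2 subunits, which supply the glutamate site of NMDA receptors, reached no more than 5.97 CPM in tumor-like cells: *Grin2b* at 5.97 and 2.15 CPM, *Grin2d* at 5.97 and 5.51 CPM, *Grin2c* at 0.853 and 0.672 CPM and *Grin2a* at 0 UMIs, which allows up to 2.56 CPM, and 0.9404 CPM. In astrocyte-like cells of FMC_new, *Gria1* was at 354 CPM, 13.5 times (11.2 to 16.1) the tumor-like level, and *Grin2c* was at 36.3 CPM, 54.0 times (21.02 to 177) the tumor-like level.

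Of 26 auxiliary and scaffold genes tested against oligodendrocyte-like cells, 19 were called higher and none lower, where 17.9% and 2.67% of all genes were, and the median log2 ratios were 4.74 and 3.55, beside 0.53 and 0.45 over all genes. *Cacng4*, an AMPA receptor auxiliary protein that slows channel closing, had 483 CPM (444 to 524) and 420.0 CPM (405 to 435) in tumor-like cells and 0.507 and 1.88 CPM in oligodendrocyte-like cells. It was also 10.9 times (7.88 to 15.6) over astrocyte-like and 58.4 times (47.4 to 72.6) over pituitary endocrine-like cells. *Neto1*, an auxiliary protein of kainate receptors, was at 92.1 and 89.6 CPM in tumor-like cells and at 0.106 and 0.552 CPM in oligodendrocyte-like cells, which hold its partner *Grik2*. *Adarb2*, a relative of the editing enzyme without known editing activity, was at 907 and 504 CPM in tumor-like cells and 8.01 and 7.34 CPM in oligodendrocyte-like cells. Against astrocyte-like cells, 5 of 26 of these genes were called higher and none lower (5.02% and 7.94% of all genes), with a median log2 ratio of 0.45 beside -0.01 over all genes. Against pituitary endocrine-like cells, 9 of 27 were higher and 2 lower (11.0% and 9.43%), with a median of 0.49 beside 0.20.

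Of 16 transporter and enzyme genes tested against oligodendrocyte-like cells, 6 were higher and 2 lower in tumor-like cells, where 17.9% and 2.67% of all genes were, with median log2 ratios of 1.09 and 1.15. Against astrocyte-like cells 2 of 16 were higher and 3 lower (5.02% and 7.94% of all genes), and the median was on the other side, at -0.95. Against pituitary endocrine-like cells 6 of 18 were higher and 3 lower (11.0% and 9.43%), with a median of 0.84. *Slc1a1*, a glutamate transporter best known from neurons, was at 188 and 133 CPM in tumor-like cells, 137 times (104 to 184) and 72.9 times (51.5 to 106) the level of oligodendrocyte-like cells and 10.4 times (5.90 to 20.1) that of astrocyte-like cells. *Slc1a2*, the main glial glutamate transporter, was at 381 and 354 CPM in tumor-like cells and 1149 CPM in astrocyte-like cells of FMC_new. The genes called lower than in oligodendrocyte-like cells were *Glul*, glutamine synthetase, with 6.78 times (6.28 to 7.34) and 11.8 times (11.3 to 12.3) more in oligodendrocyte-like cells, and *Folh1*, which releases glutamate from NAAG, with 5.06 times (3.42 to 7.83) and 11.3 times (8.80 to 14.7) more. *Folh1* thus lay on the same side as *Grm3*, the receptor of NAAG.

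The genes most like each of the 9 were taken by Pearson's r of log2(CPM + 1) over 23 class levels, which come from the same 2 libraries, among 12478 genes outside the list. Those nearest to *Gria2* were *Asic2* (r = 0.971), *Rgs20* and *Lgr5*, to *Gria3* *Atp1b2* (0.933), *Dcaf12l1* and *Nkain4*, and to *Gria4* *Robo1* (0.960), *Galnt17* and *Armh4*. For the NMDA genes they were *Add2* (0.959), *Olfm3* and *St8sia3* beside *Grin1*, and *Lrfn2* (0.965), *Arxes1* and *Lgr5* beside *Grin3a*. *Grm3* was most like *Gpr37* (0.965), *Daam2* and *Pex5l*, *Grm5* like *Slc35f1* (0.974), *Csmd1* and *C1ql2*, *Grm7* like *Unc5c* (0.973), *Otud7a* and *Nkd1*, and *Grik2* like *Map7d2* (0.974), *Nap1l5* and *Dcc*. Within the list, the closest pair was *Grin3a* and *Grm5* (0.948) and the lowest r was that of *Grm3* and *Grm5* (-0.05). Among the 10 named classes outside the 4 described here, with at least 50 cells in the library, the highest levels in C-ON were 72.4 CPM of *Grm7* in stromal-like, 64.8 CPM of *Grm3* in NK cell-like and 60.4 CPM of *Grm3* in macrophage-like cells. The intervals of all 3 overlap those of T cell-like cells of C-ON, at 52.1 CPM of *Grm7* and 53.4 CPM of *Grm3*, and are read as background. In FMC_new they were 28.3 CPM of *Gria3* and 25.8 CPM of *Gria4*, both in stromal-like cells, against 1.96 and 4.86 CPM in T cell-like cells.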

How the data were processed

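The authors aligned reads of 10x libraries made with a 5′ kit to mm10 (GRCm38) with Cell Ranger 7.2.0 per the labels and deposited raw UMI counts per gene and barcode. The paper's text names another version. No other unit was used.

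Cells with 500 to 5000 genes, 500 to 20000 UMIs and at most 5% mitochondrial UMIs were kept (25652). Log normalization, 2000 variable features, CCAIntegration, 30 components and clusters at a resolution of 0.8 were computed in Seurat 5.3.0 (R 4.3.3). The listed glutamate genes were kept out of the variable features, and the 38 clusters did not use them. A cluster took a class when at least 3 markers were found in at least 20% of its cells at 2 times the mean of the clusters; a cluster far shallower than its library with no marker of its own among its 10 leading genes stayed unnamed, and how leading genes of another class, or *Gh* and *Prl* from free RNA, bear on the name was settled after the leading genes had been seen. The rule named 27 clusters, which form 14 classes, and left 11 clusters (8.81% of cells) without a name. Cluster 12 was also shallow, at medians of 2451 and 2203 UMIs, and had no oligodendrocyte marker among its leading genes. It nevertheless kept the name oligodendrocyte-like, and its cells are part of the levels, shares and ratios of that class. Scrublet called 1 and 0 cells and so did not work as a doublet caller; no doublets were removed.

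UMIs were summed per class and library and given as CPM. Co-detection was compared after drawing 1000 UMIs from each of 25040 cells, without the 612 cells that had fewer. Genes needed 10 UMIs over both classes in each library for a ratio, and a class at 0 UMIs was set to a floor of 3 counts. There is 1 condition, so no p-values were computed; nothing shows that the pools were separate biological replicates beyond their labels. Summed ratios were tested on simulated counts, whose outcome is not given here, and no result rests on them. Python 3.11.15, numpy 2.4.6, scipy 1.17.1 and pandas 2.3.3 were used, with gene positions from GENCODE for GRCm38 (32235 of 32285 identifiers matched).

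The 9 genes and all gene lists were chosen with earlier results of these data known. Named are the 9 genes, examples of other listed genes called at 4 times or reaching 50 CPM in one of the 4 classes, and the 3 genes most like each of the 9; genes that lead clusters were named after their values were seen. Intervals are 95% and cover counting error only.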

Additional observations from a re-analysis of the deposited data

How the results depend on the processing

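The counts of genes at least 4 times higher (6) or lower (1) in tumor-like than oligodendrocyte-like cells stayed at 6 and 1 in every setting tried except a limit of 8 times, where 5 were higher; the settings also included a limit of 2 times, other resolutions, separate clustering, a mitochondrial limit of 2.5%, marker-taken cells, median-of-ratios scaling, means of single cells, thinning, no minimum of UMIs, each library alone, and, added after the data were seen, cells with the highest 5% of Scrublet scores, the shallow tumor-like cluster, or oligodendrocyte-like clusters 11 or 12 left out. With a limit of 8 times, 3 genes were higher than in astrocyte-like and 3 than in pituitary endocrine-like cells, and with a limit of 2 times 1 was lower than in the latter. With classes taken from markers of single cells, 1 gene met the limits of the study against oligodendrocyte-like cells, 0 were lower than in astrocyte-like cells, a tumor-like cell held a mean of 1.73 genes, and the log2 ratio of *Grin1* over pituitary endocrine-like cells turned from -1.01 to 0.016. Thinned to 1000 UMIs, 0 genes met the limits of the study. The *Gria2* share of AMPA UMIs in astrocyte-like cells was 32.6% at a resolution of 0.4, 32.7% at 1.2, 33.4% with each library clustered alone and 21.2% with marker-taken cells. The log2 ratio of *Grm7* over oligodendrocyte-like cells, -0.25, turned to 1.19 with marker-taken cells and to 0.30 without cluster 11. That of *Grm7* over pituitary endocrine-like cells, just under the limit of 2 at 1.98, ran from 1.75 to 2.84. Without the shallow tumor-like cluster the mean number of genes per cell was 1.78. Leaving out 1 library gave *Gria2* shares in tumor-like cells of 28.1% to 35.2% and means of 1.46 to 1.75 genes per cell, and FMC_new alone decides the comparisons with astrocyte-like and pituitary endocrine-like cells, since C-ON holds 21 and 19 such cells. No paired analysis was possible because there is 1 group of samples and no other group to pair it with; each class ratio was already taken within a library. The cause of these shifts was not tested.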

Other observations

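A small unnamed cluster, number 34, with 35 cells of C-ON and 21 of FMC_new, was led by the neuropeptide and neuron genes *Avp*, *Nms*, *Stmn2* and *Gad1* and stayed outside the named classes. Its 56 cells, both libraries together, held *Gria2* and *Gria4* at 291 CPM each (244 to 345), *Grik2* at 296 CPM (248 to 349.9), *Grm5* at 232 CPM (190.0 to 281) and *Grin1* at 123 CPM (92.6 to 159). That level of *Grin1* was the highest of the unnamed clusters, and its interval overlaps that of pituitary endocrine-like cluster 28. *Grin3a* gave 1 UMI and *Gria3* 4 UMIs in these cells, and *Grm7* stood at 85.4 CPM in 12.5% of the cells.

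The unnamed cluster 33 (61 cells, all of C-ON), led by *Smoc2*, *Igfbp6*, *Mgp* and *Dcn*, had 298 CPM (198 to 431) of *Grm3* and 309 CPM (207 to 444) of *Grm7*. It also held 10 of the 12 oligodendrocyte markers at the level the naming rule asks for. It stayed unnamed because its median UMI count was 0.226 of that of its library while none of its 10 leading genes was an oligodendrocyte marker.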
